A study of Mus musculus with 15 samples.

Results

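The genes encoding the proteasome were followed in mouse olfactory epithelium after both olfactory bulbs had been removed. Members were all genes with a probe set annotated to 1 gene whose symbol begins with Psma, Psmb, Psmc, Psmd or Psme, with Psmb8 and Psmb9 left out, and each gene was read from its brightest probe set by mean log2 signal over all arrays. There were 40 such genes, from 51 probe sets, among 8251 genes on the array. The symbols hold for more than the constitutive particle: Psmb10 is an interferon-inducible immunoproteasome subunit, Psme1 is a subunit of the interferon-inducible activator PA28, Psmd5, Psmd9 and Psmd10 are chaperones that assemble the regulatory particle, and Psmc3ip and Psme3ip1 encode proteins that are not proteasome subunits. Psme2, the partner of Psme1 in PA28, is no member because its probe set was annotated to Psme2 and Psme2b together.

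All mice were male C57Bl/6 of 6 weeks, and every array was hybridised with a pool of 3 animals that gave 5 µg of RNA apiece. The 5 groups of 3 arrays were untreated mice, mice sham-operated 5 days earlier, and mice 1, 5 or 7 days after both olfactory bulbs had been removed (bilateral olfactory bulbectomy, OBX), an operation that severs the axons of the olfactory sensory neurons and takes away their target. OBX day 5 was compared with sham day 5, and OBX days 1 and 7, which had no sham group of their own, with untreated mice. The labels do not say whether pools of a group were prepared separately, so p-values measure the spread between these arrays. The whole epithelium was sampled, so fewer cells of a type and less RNA per cell cannot be told apart.

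The proteasome is the protease that degrades ubiquitin-tagged proteins in the cytosol and nucleus. Its 20S core is a barrel of outer alpha rings, which gate the entrance, and inner beta rings, in which Psmb5, Psmb6 and Psmb7 encode the catalytic subunits. The 19S regulatory particle on the ends of the barrel has a ring of ATPases (Psmc genes), which unfold the substrate, and non-ATPase subunits (Psmd genes), which bind ubiquitin chains or remove them. After interferon signals Psmb8, Psmb9 and Psmb10 encode subunits that take the places of the constitutive catalytic ones, and PA28 caps the core in place of the regulatory particle, which favours peptides for class I presentation.

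Of the 40 genes, 37 passed the filter for a test, a call of present on at least 3 of the 15 arrays. Psmd2 and Psmc3ip were present on no array, and the ATPase gene Psmc4 was present on 1. The array values are the authors' signals, scaled to a common trimmed mean, with between 49.1% and 58.9% of probe sets present per array, and a probe set's level was never set against another's. Changes are log2 differences between group means ± SE from limma, fitted to all 15 arrays and 7508 probe sets, with p-values adjusted over all of these by the Benjamini-Hochberg method and a threshold of 0.05. Rose and fell are written only of changes that passed. Omp, Adcy3, Cnga2 and S100a5, the 4 markers of mature olfactory sensory neurons measured, summed to a signal of 92784 to 106203 in untreated mice and of 22086 to 45634 at OBX day 5. All 4 fell at OBX days 5 and 7 against their controls.

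OBX day 5 replicate 1 stood apart from every other array in the members' values. Against the mean of the other 2 arrays of its group, 11 of 37 members (29.7%) on it differed by more than 1.5-fold, 3 higher and 8 lower, beside 32.4% of all tested probe sets. On the other 14 arrays the same measure gave 0.0% to 13.5% of the members. The direction went by gene: Psmc6 was 2.81-fold lower on it, the activator gene Psme4 2.63-fold lower and the alpha-ring genes Psma1, Psma4, Psma6 and Psma3 1.53- to 1.91-fold lower. Higher on it were the chaperone gene Psmd9 by 1.63-fold, Psmd8 by 1.52-fold and Psma7 by 1.5-fold, with the non-catalytic beta-ring genes Psmb2, Psmb3 and Psmb4 and the catalytic genes Psmb5 and Psmb6 at 1.44- to 1.5-fold. The ratio of 3′ to 5′ control probe sets on that array was 0.73 for Gapdh and 1.51 for Actb, within the ranges over all arrays of 0.69 to 0.80 and 1.5 to 2.00. Its scan day and deposited hybridisation date were those of the other 2 arrays of its group. Calls at OBX day 5 are therefore also given without it.

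**Figure D1:**
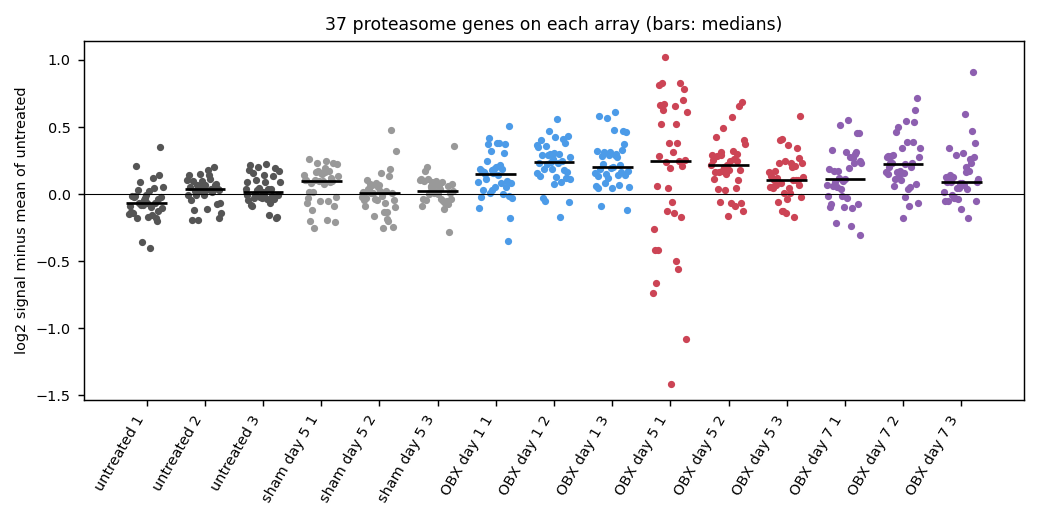
Log2 signal of the 37 tested members on each of the 15 arrays, as the difference from that gene's mean in untreated mice (vertical axis); each point is a gene and each bar the median over genes of 1 array. The medians of the 9 OBX arrays lie between 0.09 and 0.25 and those of the 3 sham arrays between 0.01 and 0.10, and the points of OBX day 5 replicate 1 spread most widely.

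Few members passed the test after bulbectomy, and with all arrays each of them rose. At OBX day 5, 6 of 37 members rose and 0 fell (Psme1, Psmb6, Psmb10, Psmb4, Psma7 and Psmd13), which is 16.2% of the members beside 11.8% of all tested probe sets that rose and 9.19% that fell. Psmb10 had no present call on a control array and entered the test only through OBX arrays, and without it 5 of 36 members (13.9%) rose. At OBX day 7, 2 of 37 rose and 0 fell (Psme1 and Psmd5), 5.41% beside 7.01% that rose and 6.02% that fell among all probe sets. At OBX day 1 none of 37 passed by limma (9 members, 24.3%, had an unadjusted p under 0.05, as did 14.8% of all probe sets), beside 1.80% of all probe sets that rose and 0.666% that fell. Without OBX day 5 replicate 1, Psme1 and Psmb4 rose at day 5 and Psmc5 fell, 3 of 37 members beside 27.4% of all tested probe sets that passed in either direction in that fit.

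Below the threshold the members lay mostly on the positive side. At OBX day 1 36 of 37 changes were positive, with a median of 0.20 beside 0.00 over all tested probe sets, and the range was −0.12 to 0.52. Against sham mice fewer were positive at day 1. There Psma2, Psmb1, Psmc5, Psmd5, Psme3 and Psme3ip1 had negative changes, of −0.22 to −0.0035. All 3 OBX day 1 arrays lay above all 3 untreated arrays for 16 of 37 members, beside 15% of all probe sets, and below them for 1 (Psme3), beside 12%. At OBX day 5 27 changes were positive, the median was 0.10 beside −0.01 (without replicate 1, 30 were positive with a median of 0.10, and 13 of 37 members turned sign), and the groups did not overlap for 9 members, all higher, beside 17.9% of probe sets higher and 16% lower. At OBX day 7 32 were positive, the median was 0.16 beside 0.03, and 14 members lay wholly higher and 2 wholly lower (Psmc5 and Psme3), beside 23.7% and 18.1%. Against sham mice the day 7 changes of Psma2, Psmb3, Psmc1, Psmc5, Psmd3, Psmd11, Psme3 and Psme3ip1 were negative, from −0.23 to −0.0019. The medians at days 1 and 7 share the untreated arrays, and genes measured on the same arrays are not independent, so no p is given for them.

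**Figure D2:**
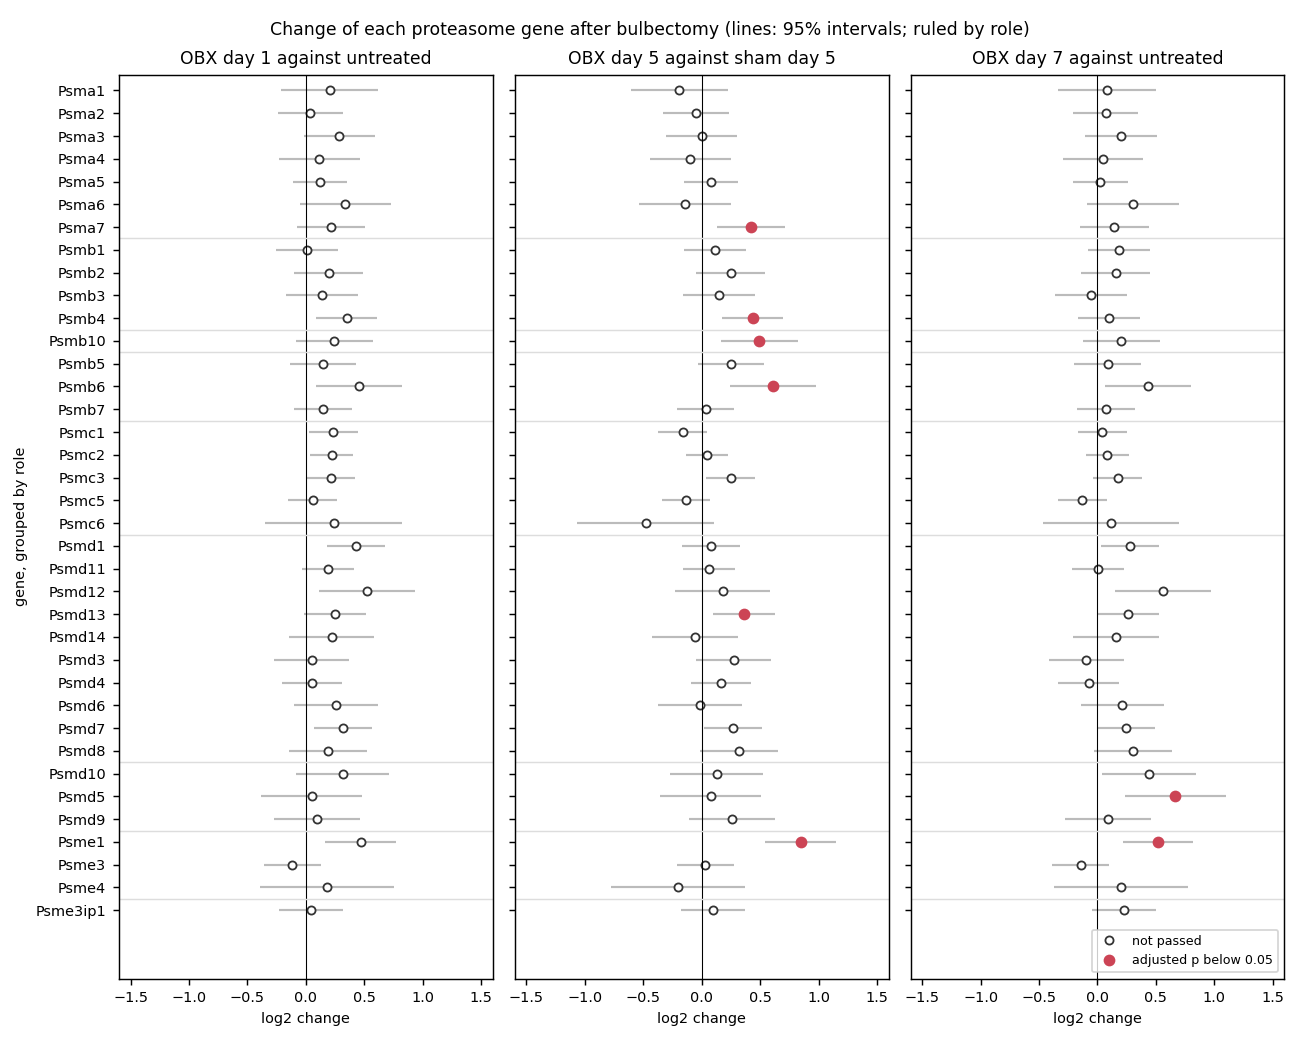
Log2 change (horizontal axis) of each of the 37 tested members in each comparison of OBX with its control, with 95% intervals from limma; rows are genes ruled by role, filled points passed an adjusted p of 0.05. The day 1 points lie to the right of 0 for 36 genes with none filled, 6 are filled at day 5 and 2 at day 7.

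The upstream sequences of 34 of the 40 members were given by RefSeq (GRCm38.p6), and the 250 bases before the start of each were searched on both strands for TGACNNNGC, the core of the antioxidant response element, and for CCAAT, the letters of the NF-Y box. The promoters of Psmb6, Psma7 and Psme1 are shown as those of members that rose at day 5, and that of Psmb5 as the catalytic neighbour that shares the element with Psmb6 and did not pass. Each window is printed 5′ to 3′ in the direction of the gene, with matches in capitals.
Psmb6: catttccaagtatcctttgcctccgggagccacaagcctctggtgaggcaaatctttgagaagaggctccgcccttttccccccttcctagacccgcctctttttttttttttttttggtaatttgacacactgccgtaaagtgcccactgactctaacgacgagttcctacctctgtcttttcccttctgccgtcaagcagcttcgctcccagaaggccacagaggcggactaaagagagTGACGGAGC
Psmb5: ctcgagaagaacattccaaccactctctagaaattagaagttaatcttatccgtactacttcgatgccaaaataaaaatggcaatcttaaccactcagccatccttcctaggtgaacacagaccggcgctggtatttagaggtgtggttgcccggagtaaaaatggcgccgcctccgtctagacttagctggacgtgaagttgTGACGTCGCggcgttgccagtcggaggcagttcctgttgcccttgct
Psma7: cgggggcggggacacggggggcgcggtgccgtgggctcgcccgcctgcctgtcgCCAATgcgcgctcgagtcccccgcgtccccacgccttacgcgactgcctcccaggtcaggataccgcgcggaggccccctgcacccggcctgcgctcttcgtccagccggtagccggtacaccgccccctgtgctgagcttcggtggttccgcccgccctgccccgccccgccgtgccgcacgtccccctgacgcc
Psme1: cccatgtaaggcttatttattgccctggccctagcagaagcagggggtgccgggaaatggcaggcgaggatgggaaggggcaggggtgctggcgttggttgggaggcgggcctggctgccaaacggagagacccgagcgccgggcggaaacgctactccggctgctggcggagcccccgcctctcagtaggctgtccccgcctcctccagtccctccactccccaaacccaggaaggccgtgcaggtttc
They lie at chr11:70525107-70525356 (plus strand), chr14:54617996-54618245 (minus strand), chr2:180042465-180042714 (minus strand) and chr14:55578244-55578493 (plus strand). The Psmb6 window holds TGACGGAGC starting 9 bases before the start of the gene, that of Psmb5 holds TGACGTCGC starting 47 bases before it, and that of Psma7 holds CCAAT starting 196 bases before it. The Psme1 window holds neither.

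TGACNNNGC was found in 5 of the 34 windows (14.7%; Psmb5, Psmb6, Psmc6, Psmd9 and Psmd12), beside 11.5% of the windows of 27025 genes. CCAAT was found in 14 (41.2%), beside 37.5%. Of the 5 members with TGACNNNGC, only Psmb6 rose in a comparison with a control. Of the 14 with CCAAT, among which Psmc3ip was not tested, only Psma7 did. Both rose at day 5, when 16.2% of the 37 tested members and 11.8% of all tested probe sets rose. These counts are no result about the matches. At day 5 the 5 members with TGACNNNGC changed by −0.48 (Psmc6) to 0.61 (Psmb6), and without OBX day 5 replicate 1 by 0.02 (Psmc6) to 0.42 (Psmb6). A match is a description of letters and not of a bound site.

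Among the activators Psme1 rose, and its day 5 change was the largest of any member against its control. It encodes the alpha subunit of PA28, which opens the 20S gate without ubiquitin or ATP. Its signal was 2198, 1524 and 1530.4 on the untreated arrays, 1495, 1458 and 1682 on the sham arrays, 2453, 2329.8 and 2370.5 at OBX day 1, 2970.3, 2779.7 and 2585 at OBX day 5 and 2366, 2836 and 2245 at OBX day 7. Psme1 has 2 probe sets, and the dimmer was present on no array, so these values rest on 1. All 9 OBX arrays were higher than all 6 control arrays. At OBX day 5 it rose 1.80-fold (log2 0.85 ± 0.14, adjusted p = 0.00082, limma), and without replicate 1 the change was 0.80 ± 0.15 (adjusted p = 0.0013). At OBX day 7 it rose 1.43-fold (0.52 ± 0.14, adjusted p = 0.027, limma). At OBX day 1 the change was 0.47 ± 0.14 and missed the threshold against untreated mice (adjusted p = 0.12), where untreated replicate 1 was the high control. Without that array it was 0.64 (adjusted p = 0.024, limma), and against sham mice 0.63 ± 0.14 (adjusted p = 0.023). Most alternative fits did not pass at day 1: of 19, 4 passed, with changes of 0.38 to 0.64 (adjusted p of 0.0012 to 0.33, limma). Of the 6 among them that left out 1 array, 1 passed. The difference between the changes from control at days 5 and 1 did not pass (0.38 ± 0.20, 95% interval −0.05 to 0.81).

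The day 5 rise of Psme1 passed in all 6 fits that left out 1 array, with changes of 0.80 to 0.91. The day 7 rise was lost without untreated replicate 2 (0.43), untreated replicate 3 (0.43), OBX day 7 replicate 1 (0.55) or OBX day 7 replicate 2 (0.42), with adjusted p between 0.06 and 0.12 in limma. The probe set annotated to Psme2 and Psme2b together read 2030.1, 2034 and 2138 on the sham arrays and 3149, 2608 and 2484 at OBX day 5, a rise of 0.40 ± 0.11 (adjusted p = 0.022, limma), and without replicate 1 of 0.30 (adjusted p = 0.039). The other activators did not pass. Psme3, a nuclear activator, read 1985 to 2052 in untreated mice, 1784 to 1938 at OBX day 1 and 1629 to 1944 at OBX day 7, and Psme4 (PA200) changed by 0.18 ± 0.27 at day 1 and 0.20 ± 0.27 at day 7.

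The summed signals of macrophage and of sustentacular cell markers were higher on the OBX arrays than on the control arrays. The 8 measured macrophage and monocyte markers of 10 listed (Fcgr3 and Aif1 were present on no array) summed to 15033 to 17358 in untreated mice, 16260.3 to 18878 in sham mice, 20376 to 20812 at OBX day 1, 29910.3 to 31199.6 at day 5 and 20855 to 24098 at day 7. Of these 8 markers, 2 rose at day 1, 5 at day 5 and 5 at day 7. The 3 measured sustentacular cell markers of 6 listed (Sult1c1, Krt8 and Krt18) summed to 17912 to 20489 in untreated mice, 17183 to 20932 in sham mice, 26989.7 to 31379 at day 1, 24506 to 29794 at day 5 and 22217 to 23905 at day 7. Of these 3 markers, 2 rose at day 1, 2 at day 5 and 0 at day 7. The 5 cell division markers summed to 7231 to 7470.2 in untreated mice, 7298 to 8833 in sham mice, 6879 to 8050.2 at day 1, 9073 to 11678 at day 5 and 10889 to 12222 at day 7, and 0, 3 and 4 of them rose at days 1, 5 and 7. The 5 immature neuron markers summed to 56972 to 60060.5 in untreated mice, 56598 to 57767 in sham mice, 52681 to 60905 at day 1, 58939.5 to 67678 at day 5 and 66452 to 77444 at day 7. At day 1 the cell division and immature neuron sums overlapped those of untreated mice. The mature neuron sum was 77770 to 83503 at day 1, beside 92784 to 106203 in untreated mice. Among the immature neuron markers Gap43 and Stmn1 rose at days 5 and 7, and Dcx fell at day 5. Without OBX day 5 replicate 1 the day 5 rises were 5 macrophage, 3 sustentacular, 3 cell division and 2 immature neuron markers. In that fit 1 immature neuron marker and all 4 mature neuron markers fell. Of all tested probe sets 27.4% passed in it in either direction. With all arrays 1.80%, 11.8% and 7.01% of probe sets rose at days 1, 5 and 7. The part of these cell types in the changes of the members was not tested.

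Of the immunoproteasome genes, Psmb10 and, outside the members, Psmb8 rose at OBX day 5. Psmb10 takes the place of Psmb7 in the core. It was called present on no untreated and no sham array, and on 2, 3 and 1 arrays at OBX days 1, 5 and 7. It thus passed the filter through the groups where it is high, and its test is not independent of the filter. Its signal was 986, 1229.8 and 1224 on the sham arrays and 1817, 1463 and 1556 at OBX day 5, where the groups did not overlap. It rose at day 5 (log2 0.49 ± 0.15, adjusted p = 0.035, limma), and the ratio of the mean signals was 1.41. That ratio is an estimate and no lower bound. Its sham values came from arrays that did not call the probe set present. It read 1253, 1029 and 1263 on the untreated arrays, 1573, 1375 and 1246 at day 1 and 1327, 1619 and 1153 at day 7, and the changes there of 0.24 ± 0.15 and 0.20 ± 0.15 did not pass.

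Psmb8, which takes the place of Psmb5 and was left out of the members, read 821, 588 and 651 on the untreated arrays, 544, 998 and 713 on the sham arrays, 1035, 1106 and 1094 at OBX day 1, 1649.5, 1312 and 1192 at day 5 and 1194, 1059 and 1452 at day 7. It rose 1.88-fold at day 5 (0.91 ± 0.21, adjusted p = 0.006, limma; 0.78 and 0.015 without replicate 1) and 1.80-fold at day 7 (0.85 ± 0.21, adjusted p = 0.015). Psmb9 was present on no array, and its signals were 329 to 543 in sham mice and 701 to 897 at OBX day 5, so no fold is given.

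Psmb6 encodes the subunit that cuts after acidic residues. Its signal was 3276, 4651 and 4816 on the untreated arrays, 4702, 3747 and 4449 on the sham arrays, 5217, 5797 and 6218 at OBX day 1, 8499.5, 5886 and 5569.7 at OBX day 5 and 5973, 5926 and 5131 at OBX day 7. All 9 OBX arrays lay above all 6 control arrays. It rose 1.53-fold at day 5 (0.61 ± 0.17, adjusted p = 0.021, limma), and the changes of 0.45 ± 0.17 at day 1 and 0.44 ± 0.17 at day 7 did not pass (adjusted p = 0.22 and 0.11). Without OBX day 5 replicate 1 the day 5 change was 0.42 ± 0.15 (adjusted p = 0.051), and without sham day 5 replicate 2 it was 0.51 (adjusted p = 0.094, limma).

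Psmb5, the subunit with chymotrypsin-like activity and the target of bortezomib, read 7042, 7765 and 7615 on the untreated arrays, 8023, 7506 and 7746 on the sham arrays, 7490.4, 9119 and 8272 at OBX day 1, 11871, 8409 and 7918 at day 5 and 8123, 8368 and 7327 at day 7. None of its changes passed (0.15 ± 0.13, 0.25 ± 0.13 and 0.09 ± 0.13 at days 1, 5 and 7). Its second probe set moved the other way, with 854, 1109.6 and 862 on the sham arrays and 708, 452 and 767 at OBX day 5, a change of −0.58 ± 0.20 that also missed the threshold (adjusted p = 0.057, limma). Without replicate 1 this second probe set fell by 0.67 on the log2 scale (adjusted p = 0.035). Psmb7, the subunit with trypsin-like activity, read 4457, 4745 and 4804 on the untreated arrays, 5465, 4539.8 and 4753 on the sham arrays, 4756, 5746 and 5068 at day 1, 5519.7, 5365 and 4264 at day 5 and 4796, 5144 and 4804 at day 7. Its change at day 5 was 0.03 ± 0.12, with a 95% interval of −0.21 to 0.28, and the groups overlapped at every time. Without OBX day 5 replicate 1 the day 5 changes were 0.07 for Psmb5 and −0.04 for Psmb7.

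**Figure D3:**
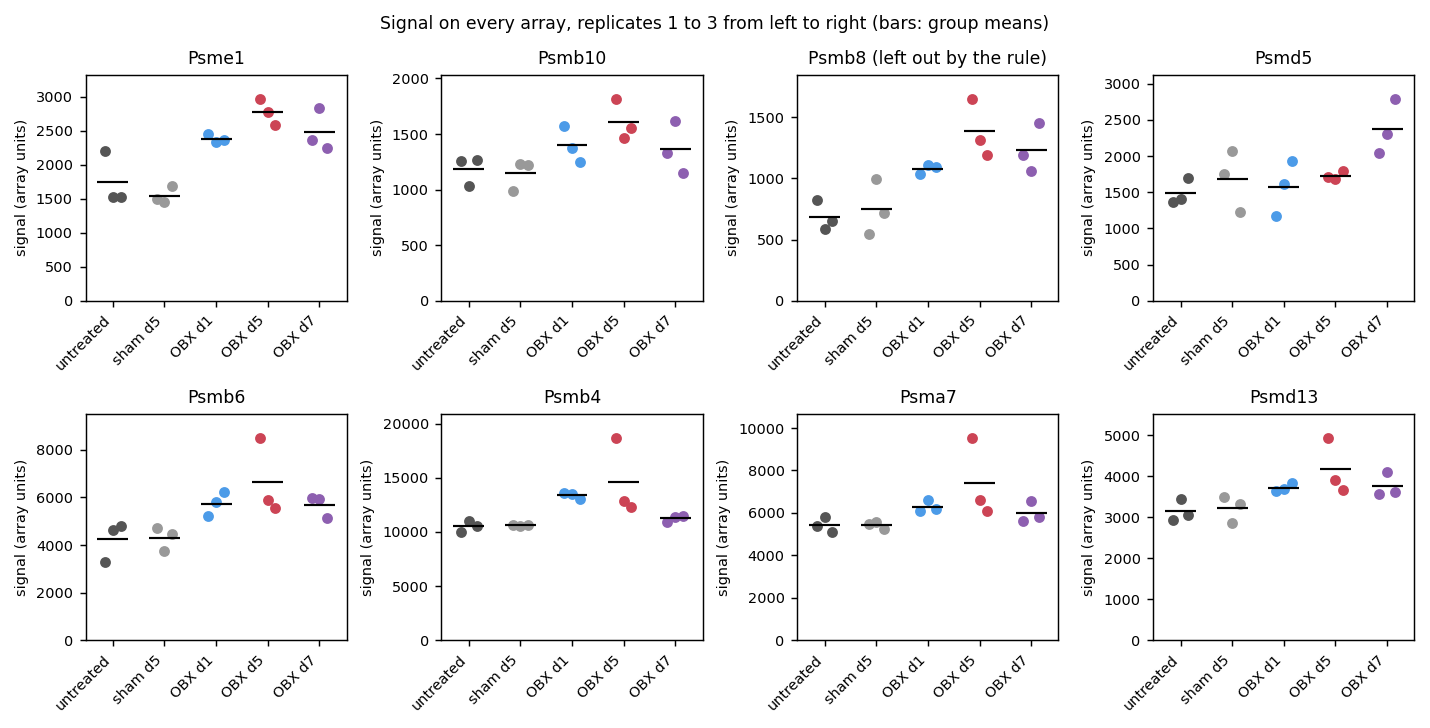
Signal in array units on each of the 15 arrays (points) with the group means (bars) for the 7 members that passed in a comparison with a control, and for the immunoproteasome gene Psmb8. The Psme1 and Psmb6 points at OBX days 1, 5 and 7 all lie above the 6 control points, and OBX day 5 replicate 1 gives the highest point for every gene shown but Psmd5.

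In the rest of the 20S core, 2 genes rose at OBX day 5. Psmb4, a non-catalytic beta-ring subunit, read 10029.7, 10985 and 10532 on the untreated arrays, 10648, 10546 and 10638 on the sham arrays, 13616, 13459 and 13051 at OBX day 1, 18670.5, 12869 and 12322 at day 5 and 10906, 11340.0 and 11485 at day 7. Its sham values lay close together, and both the day 1 and the day 5 arrays lay wholly above the controls. It rose 1.35-fold at day 5 (0.44 ± 0.12, adjusted p = 0.021, limma) and, without replicate 1, by 0.25 ± 0.07 (adjusted p = 0.012). It missed the threshold without any 1 of the sham arrays (0.44, 0.43 and 0.44 without sham replicates 1, 2 and 3). At day 1 the change was 0.35 ± 0.12 (adjusted p = 0.18, limma). Psmb4 has 3 probe sets, and those other than the brightest were present on no array, so these values rest on 1 probe set.

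Psma7, an alpha-ring subunit, read 5366, 5783 and 5105 on the untreated arrays, 5473, 5554 and 5244 on the sham arrays, 6077, 6612 and 6169 at OBX day 1, 9526, 6592 and 6110.3 at day 5 and 5632, 6577 and 5787 at day 7. The day 5 value of replicate 1 was far above the other 2. Psma7 rose by 0.42 ± 0.14 at day 5 (adjusted p = 0.04, limma) and without replicate 1 the change was 0.23 ± 0.09 (adjusted p = 0.065). The call was also lost without sham replicate 1 (0.43), 2 (0.44) or 3 (0.40). The call for Psmb10 was lost without sham replicate 1 (0.39), 2 (0.55) or 3 (0.54), and without OBX day 5 replicate 1 (0.40) or 3 (0.52). The other 6 alpha-ring genes did not pass at any time, with changes of −0.19 to 0.08 at day 5 and 0.04 to 0.34 at day 1. Without OBX day 5 replicate 1 their day 5 changes were all positive, 0.09 to 0.21, with Psma1, Psma2, Psma4 and Psma6 turning sign. Psmb1, Psmb2 and Psmb3 did not pass either, with 0.11 to 0.25 at day 5 and −0.04 to 0.07 without replicate 1. A second, present probe set of Psmb1 changed by 0.40 ± 0.14 at day 5 (adjusted p = 0.059).

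**Figure D4:**
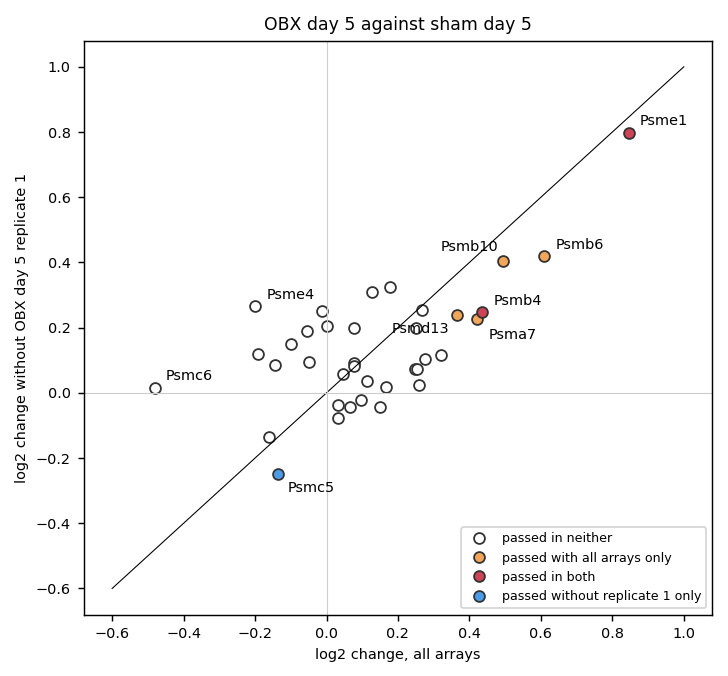
Log2 change at OBX day 5 against sham day 5 of each of the 37 tested members with all arrays (horizontal axis) and without OBX day 5 replicate 1 (vertical axis); the diagonal marks equal values and colours give which fit passed. Psme1 and Psmb4 passed in both, Psmb6, Psmb10, Psma7 and Psmd13 with all arrays only, Psmc5 without replicate 1 only, and Psmc6 moved from −0.48 to 0.02.

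No ATPase gene of the 19S base passed with all arrays. Psmc6 read 13493, 12405 and 12167 on the sham arrays and 4564, 13805 and 11900.3 at OBX day 5, and its change of −0.48 ± 0.27 became 0.02 ± 0.08 without replicate 1. Psmc5 read 4952, 4956 and 5021 on the untreated arrays, 5545, 5208 and 5217 on the sham arrays, 5167, 5240.0 and 5148 at OBX day 1, 5690.3, 4446 and 4503 at day 5 and 4654, 4400.5 and 4595 at day 7. Its change at day 5 was −0.13 ± 0.10 with all arrays, and without replicate 1 it fell by 0.25 on the log2 scale (adjusted p = 0.013, limma). Psmc3 did not pass on its brightest probe set at day 5 (0.25 ± 0.10, adjusted p = 0.084), while its other 2 probe sets rose, from 680.5 to 886 to 1122 to 1361 (0.65 ± 0.17, adjusted p = 0.014, limma) and from 2401 to 2981 to 3191 to 4393 (0.40 ± 0.13, adjusted p = 0.039). Without replicate 1 these 2 changes were 0.59 (adjusted p = 0.026) and 0.27 (adjusted p = 0.083, limma). Psmc1 and Psmc2 changed by 0.24 ± 0.10 and 0.22 ± 0.08 at day 1, with no overlap with untreated mice and no pass.

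Among the 10 non-ATPase genes tested, 1 rose. Psmd13, a lid subunit, read 2924, 3451 and 3048 on the untreated arrays, 3505, 2854 and 3329.5 on the sham arrays, 3632, 3685 and 3847 at OBX day 1, 4933, 3916 and 3676 at day 5 and 3579, 4095 and 3609 at day 7. It rose by 0.36 ± 0.12 at day 5 (adjusted p = 0.049, limma), just inside the threshold. Of the 6 fits that left out 1 array, 5 lost the call: those without sham replicate 1 (0.43), 2 (0.28) or 3 (0.39) and those without OBX day 5 replicate 1 (0.24) or 2 (0.40).

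At day 1 Psmd1, Psmd7 and Psmd12 were the non-ATPase genes whose brightest probe set had an unadjusted p under 0.05, and none passed after adjustment. Psmd11 changed by 0.19 ± 0.10 on its brightest probe set. On a second, present probe set it changed by 0.37 ± 0.11 (adjusted p = 0.12, limma). Psmd1, the large scaffold subunit of the base, read 2498, 2879.9 and 3106 on the untreated arrays and 3668, 3784 and 3913 at OBX day 1, a change of 0.43 ± 0.12 (adjusted p = 0.07, limma). Psmd12, a lid subunit, read 1320.4, 1969 and 2038 on the untreated arrays, 2273, 2575 and 2666 at day 1 and 2555, 2546 and 2635 at day 7, changes of 0.52 ± 0.19 and 0.56 ± 0.19 (adjusted p = 0.20 and 0.068, limma). In Psmd1 and Psmd12 every OBX array of those days was above every untreated array. Psmd7, a lid subunit, changed by 0.32 ± 0.12 at day 1 (adjusted p = 0.20, limma), with overlapping groups. Psmd14, the lid's deubiquitinase, changed by 0.22 ± 0.17, −0.05 ± 0.17 and 0.16 ± 0.17 at days 1, 5 and 7, and by 0.19 at day 5 without replicate 1. Psmd4, a ubiquitin receptor, changed by 0.05 ± 0.12, 0.17 ± 0.12 and −0.08 ± 0.12, and by 0.02 at day 5 without replicate 1.

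Psmd5 was the only assembly chaperone gene of 3 that passed. It read 1364, 1413 and 1701 on the untreated arrays, 1745, 2064 and 1224 on the sham arrays, 1166, 1616 and 1929 at OBX day 1, 1714, 1686 and 1789 at day 5 and 2038, 2298 and 2791 at day 7. It rose 1.59-fold at day 7 against untreated mice (0.66 ± 0.20, adjusted p = 0.043, limma), but the day 7 and sham arrays overlapped and the change against sham was 0.52 (adjusted p = 0.10). The call was lost in all 6 fits that left out 1 array, with changes of 0.54 to 0.77 and adjusted p of 0.056 to 0.15: 0.60, 0.63 and 0.76 without untreated replicates 1, 2 and 3, and 0.77, 0.68 and 0.54 without OBX day 7 replicates 1, 2 and 3. Psmd10 (gankyrin) read 454, 494 and 455 on the untreated arrays and 582, 678 and 647 at day 7, a change of 0.44 ± 0.19 that did not pass (adjusted p = 0.14).

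The scan day of the arrays went with the groups. The first day held both control groups and OBX day 1 replicates 1 and 2, and the second held OBX day 1 replicate 3 together with every array of the later OBX groups. With scan day as a block, which only the OBX day 1 arrays can estimate, 0 members passed in any comparison by limma. In that fit Psme1 changed by 0.86 at day 5 and 0.53 at day 7 (adjusted p = 0.17 and 0.68), Psmb6 by 0.43, Psmb4 by 0.49, Psmb10 by 0.73, Psma7 by 0.46 and Psmd13 by 0.29 at day 5. Psmd5 went from 0.66 to 0.17 at day 7. Within the first scan day, where OBX day 1 and untreated arrays stand side by side, Psmb4 rose by 0.37 (adjusted p = 0.027, limma) and Psme1 changed by 0.47 (adjusted p = 0.17). No scan day holds OBX day 5 or day 7 together with a control. Sham replicates 2 and 3 and OBX day 1 replicates 1 and 2 shared a deposited hybridisation date. On these arrays Psme1 read 1458 and 1682 in sham and 2453 and 2329.8 at OBX day 1. These are values of 1 gene, and the part of the batch in its change was not tested.

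The operation alone and the passage between OBX days gave no call. Sham day 5 against untreated gave 0 of 37 members with a median of 0.03 beside 0.00, and 0.0% of probe sets rose and 0.0% fell (limma; 0 members and 112 probe sets, 1.49%, had an unadjusted p under 0.05). Between OBX days 1 and 5 no member passed (3 members, 8.11%, had an unadjusted p under 0.05, as did 23.4% of probe sets), beside 3.96% of probe sets that rose and 3.86% that fell. The smallest p was that of the ATPase gene Psmc1, which read 3452, 3602 and 3736 at day 1 and 2798, 3115 and 2801 at day 5 (−0.31 ± 0.10, adjusted p = 0.067, limma). Between days 5 and 7 no member passed (3 members, 8.11%, under 0.05 unadjusted, and 601 of 7508 probe sets), beside 0.0% that rose and 0.0% that fell. Between days 1 and 7 none passed (1 under 0.05 unadjusted, Psmd5 with 0.62 ± 0.20, and 16.0% of probe sets), beside 2.21% that rose and 2.25% that fell.

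Other genes of the ubiquitin and proteasome pathway gave few calls. Of 16 tested genes that are no member (31 listed), Cdc34, a ubiquitin-conjugating enzyme, rose at day 5 by 0.48 ± 0.15 (adjusted p = 0.039, limma; 0.26 and 0.076 without replicate 1), and Ufd1, a cofactor of the segregase Vcp, fell by 0.53 on the log2 scale at day 7 (adjusted p = 0.011). The list's medians were 0.04, −0.05 and 0.10 at days 1, 5 and 7, and without replicate 1 the day 5 median was 0.04 with 1 rise and 2 falls. Of 11 tested genes for assembly factors, inhibitors and transcription factors of the proteasome (15 listed), Nfe2l2, which encodes the stress factor NRF2, fell by 0.70 at day 5 and by 0.67 at day 7 on the log2 scale (adjusted p = 0.015 and 0.028, limma). Without replicate 1 Nfe2l2 fell by 0.61 at day 5 (adjusted p = 0.033). Nfe2l1, which drives proteasome genes when the proteasome is impaired, changed by −0.01 ± 0.08, −0.12 ± 0.08 and −0.13 ± 0.08, and the core assembly factor gene Pomp by 0.31 ± 0.13, 0.18 ± 0.13 and 0.24 ± 0.13 at days 1, 5 and 7. The medians of this list were −0.01, 0.01 and 0.12.

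The list of immunoproteasome and class I peptide loading genes held 9 tested genes. Of these, 0 passed at day 1, 4 rose at day 5 (Psmb8, B2m, H2-K1 and H2-D1), and 6 rose and Canx fell at day 7, with medians of 0.30, 0.43 and 0.83. Among all tested probe sets 1.80% rose and 0.666% fell at day 1, 11.8% and 9.19% at day 5, and 7.01% and 6.02% at day 7. B2m, which encodes beta-2 microglobulin of the class I complex, rose by 1.22 ± 0.22 at day 5 (adjusted p = 0.0013, limma). Without OBX day 5 replicate 1 B2m rose by 1.31 (adjusted p = 0.0012, limma). Of 16 tested interferon response genes 1 rose at day 1, 5 rose and 2 fell at day 5, and 6 rose at day 7, with medians of 0.44, 0.40 and 0.64. Without OBX day 5 replicate 1 the same 4 class I genes rose at day 5, with a median of 0.44. In that fit 6 interferon genes rose and 2 fell, with a median of 0.73. Ifit1 and Ifit2 fell, each by 1.31 on the log2 scale (adjusted p = 0.00011 and 0.0014, limma). Of all tested probe sets 27.4% passed there in either direction.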

How the data were processed

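RNA from olfactory epithelium, in pools of 3 mice, was hybridised to 15 MG_U74Av2 arrays of Affymetrix, 3 in each of 5 groups. The deposited intensities are linear signals per probe set that the authors scaled to a common trimmed mean (1500.6 to 1500.7 on every array), and the deposited detection p-value came with a call of present. Which software made the signals is not given in the sources used here. Deposited station settings, which are other than a measurement, gave scan day and hybridisation date.

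Genes were named from the platform annotation, of which 10833 probe sets have 1 gene, 396 several and 1193 none. Intensities were floored at 1 and log2 transformed. Probe sets present on at least 3 of 15 arrays (7508) were fitted in limma 3.58.1 under R 4.3.3 with 1 mean per group, a variance trend and two-sided p-values adjusted by the Benjamini-Hochberg method within each comparison. The script was tested on simulated data. SE is that of the fit. The number of arrays limits the precision.

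The members and all gene lists were chosen with earlier results of these data known. Values on every array are given for members that passed in a comparison with untreated or sham mice, for Psmb5, Psmb6, Psmb7 and Psmb10, and for the left-out Psmb8 and Psmb9; Psmc6, Psmc5, Psmc1, Psmd1, Psmd12, Psmd10 and the second probe sets were added after their values were seen. Lists were described for the ubiquitin pathway, proteasome assembly and transcription factors, class I loading, the interferon response and cell types (mature and immature olfactory neuron, basal cell, macrophage, sustentacular cell, cell division). The 4 measured basal cell markers (Krt5 and Krt14 were present on no array) summed to 3235 to 3442 in untreated mice and 5328 to 7018 at OBX day 7. Alternatives were other filters, floors, normalizations, controls and batch terms, and each array left out; fits within a scan day, and list genes without OBX day 5 replicate 1, were added after seeing the data.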

Additional observations from a re-analysis of the deposited data

Results flagged for a closer look

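Psmc5 was flagged because all 3 OBX day 1 arrays lay above the untreated arrays and all 3 OBX day 7 arrays lay below them. Its change from OBX day 1 to OBX day 7 was −0.19 ± 0.10 on the log2 scale and did not pass (adjusted p = 0.38, limma), so a difference between the days was not established. The untreated signals of Psmc5 lay within 4952 to 5021.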

How the results depend on the processing

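The number of members that passed depended on how the spread between arrays was modelled, and each count is given with the share of all tested probe sets that passed in the same fit. Against 0 (2.46%), 6 (21.0%) and 2 (13.0%) of 37 at OBX days 1, 5 and 7, scan day as a block gave 0 at day 5 (0.866%) and 0 at day 7 (0.173%). Hybridisation date as a random block gave 10 (19.9%), 14 (51.2%) and 13 (41.1%), and 2 (20.6%), 5 (13.0%) and 1 (15.2%) in the comparisons of day 5 with 1, 7 with 5 and 7 with 1. The estimated correlation within a hybridisation date was −0.25. A negative value narrows the error of the mean of arrays that share a date and so adds calls over all probe sets. These counts are no result about the members. Array weights gave 9 (13.2%) at day 1, 6 (29.9%) at day 7, 1 (11.9%) for day 5 with 1 and 4 (15.6%) for day 7 with 1, with OBX day 5 replicate 1 at a weight of 0.069. Fitting only the groups compared gave 2 (6.05%), 1 (6.25%) and 4 (22.8%), and 1 (9.76%) for day 7 with 1. Testing all probe sets gave 3 (12.2%) at day 5 and 1 (7.47%) at day 7. Without the variance trend 1 (12.3%) passed at day 7, the other control gave 1 at day 1 (3.28%) and 1 at day 7 (12.9%), a floor of 100 gave 1 (7.87%) for day 5 with 1, and the first scan day alone gave 1 (2.72%) at day 1. Leaving out 1 array gave 0 to 1 at day 1 (0.666% to 1.73%), 1 to 7 at day 5 (14.3% to 27.4%), 0 to 1 at day 7 (7.45% to 9.02%) and 0 to 3 for day 5 with 1 (4.52% to 11.1%). For the difference of sham from untreated every alternative gave 0.

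Taking the mean of all probe sets turned Psmb5 to −0.0010, −0.16 and −0.23 at days 1, 5 and 7. Psmb7 at day 5 turned to −0.0094 with array weights, and when 1 array was left out its range was −0.036 to 0.15. Psmc6 at day 5 ranged from −0.78 to 0.016 when 1 array was left out, the latter without OBX day 5 replicate 1. The cause of these changes was not tested.

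Same-numbered arrays of different groups did not deviate together (correlations of −0.35 to 0.37 over 30 pairs, 8 above 0.1, and 7 of 15 arrays correlated best with their own number). The replicate block gave 0 (2.08%), 5 (20.4%) and 2 (12.3%) members at days 1, 5 and 7, Psmd13 being the call lost at day 5 (adjusted p = 0.068). Psmb10 was dim, being present on 6 of 15 arrays, all of them OBX.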
